A study of Mus musculus with 2 samples.

Results

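The 10 WNT ligand genes Wnt3a, Wnt4, Wnt5a, Wnt5b, Wnt6, Wnt7a, Wnt7b, Wnt9a, Wnt10a and Wnt11 were followed cell by cell in squamous cells of mouse esophageal organoids and in columnar cells of mouse stomach organoids. They were chosen by name, with earlier results of these data known. They make up 10 of the 19 WNT ligand genes and of the 32285 genes in the count matrix. Organoids are small epithelial bodies grown in a gel from tissue stem cells, here without the fibroblasts that surround these epithelia in the animal. Both groups were untreated, and each was 1 sample that combined cells of several mice. The esophageal organoids grew without added WNT and carried sample tag 8. The stomach organoids were started from glands of the corpus, grew in R-spondin1- and WNT3A-conditioned medium with gastrin, and carried sample tag 11. Forskolin was in the esophageal medium only, so tissue and medium cannot be told apart. The labels give neither strain nor age.

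WNT ligands are secreted lipid-modified proteins that act over short distances by binding Frizzled receptors and LRP5 or LRP6, which stabilizes β-catenin, or by other Frizzled- and ROR-linked routes that leave β-catenin aside. In the lipid step the enzyme PORCN attaches a fatty acid to a conserved serine, and the carrier WLS then takes the ligand to the cell surface. In the stomach such signals maintain gland stem cells, and in stratified epithelia basal cells are known to make WNT ligands of their own.

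The stretch that codes for this serine shows how alike the ligands are where they are modified, and it is shown for the genes described in most detail. Each run has 24 bases of the coding strand, taken from the GENCODE vM21 transcripts on build GRCm38, and the capitals mark the serine codon.
Wnt4: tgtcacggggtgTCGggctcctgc
Wnt10a: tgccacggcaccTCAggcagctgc
Wnt7b: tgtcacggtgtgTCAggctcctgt
Wnt6: tgccatgggcttTCGggttcctgc
Wnt3a: tgccacgggctaTCTggcagctgt
Wnt5a: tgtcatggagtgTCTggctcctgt
The stretch was found in all 10 genes, and 13 of its 24 bases were the same in all 10. Relative to Wnt4, Wnt7b shared 21 of the 24 bases and Wnt10a shared 16. The serine is codon 212 of the Wnt4 reading frame and codon 268 of that of Wnt10a. Wnt4 lies on chr4:137277489-137299726 and Wnt7b on chr15:85535437-85582473. Wnt6, at chr1:74771892-74785322, and Wnt10a, at chr1:74791516-74804179, are neighbours on the same strand, 6193 bases apart. Wnt3a and Wnt9a are neighbours too, with 16175 bases between them on chromosome 11.

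Transcripts were counted as unique molecular identifiers (UMIs), each standing for 1 captured mRNA molecule read from its 3′ end. Squamous and columnar cells were told apart by 6 keratins, none of them used below as a result, which gave 702 squamous esophageal and 46 columnar stomach cells. The squamous cells held 18456220 UMIs with a median of 23460 per cell, and the columnar cells 2469229 UMIs with a median of 59575.5. Since each group was 1 sample, no test was possible. Intervals are 95% intervals and cover counting error only. Levels are given as CPM, the UMIs of a gene per 1000000 UMIs of its group. A count of 0 allows up to 3 UMIs over a group, which is 0.163 CPM in the squamous cells and 1.21 CPM in the columnar cells. The tissue labels were checked with lists of lineage genes other than those keratins, and both lists were high in the tissue they name. The squamous list summed to 10845 CPM in the esophageal cells and 194 CPM in the stomach cells. The columnar list summed to 60.7 CPM in the esophageal cells and 5412 CPM in the stomach cells. Not every marker list parted the tissues. Basal squamous markers summed to 1962 and 277 CPM in esophageal and stomach cells, and suprabasal ones to 3675 and 814 CPM. The 14 superficial squamous markers were higher in the stomach cells, at 2137 and 2823 CPM. The 7 gastric pit markers were nearly equal, at 1596 and 1775 CPM, and the 8 neck and chief markers were at 13.3 and 175 CPM. Of 10 endocrine markers none was seen in the stomach cells, and of 6 parietal markers only 2 were.

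Both epithelia expressed WNT ligand genes, and each had a different leading ligand. All 10 together reached 410 CPM in squamous cells and 134 CPM in columnar cells. Wnt4 made up 69.9% of the ligand UMIs in squamous cells and 34.3% in columnar cells, Wnt10a 25.7% and 12.05%, and Wnt7b 1.43% and 44.3%. The remaining 9 WNT ligand genes of the matrix, Wnt1, Wnt2, Wnt2b, Wnt3, Wnt8a, Wnt8b, Wnt9b, Wnt10b and Wnt16, gave 1 UMI in squamous cells and 0 in columnar cells. Since the 10 were chosen with earlier results of these data known, the low count of the other 9 is a description only. Ligands from supporting cells could be asked for only by their markers. Col1a1, Col1a2, Col3a1, Dcn and Pdgfra of fibroblasts had together 1 UMI in squamous cells and 0 in columnar cells. The whole list of 10 fibroblast markers summed to 1.35 CPM in squamous cells and 27.1 CPM in columnar cells, with 2 markers seen in each, and 47 of the 62 columnar Fn1 UMIs lay in a single cell.

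**Figure D1:**
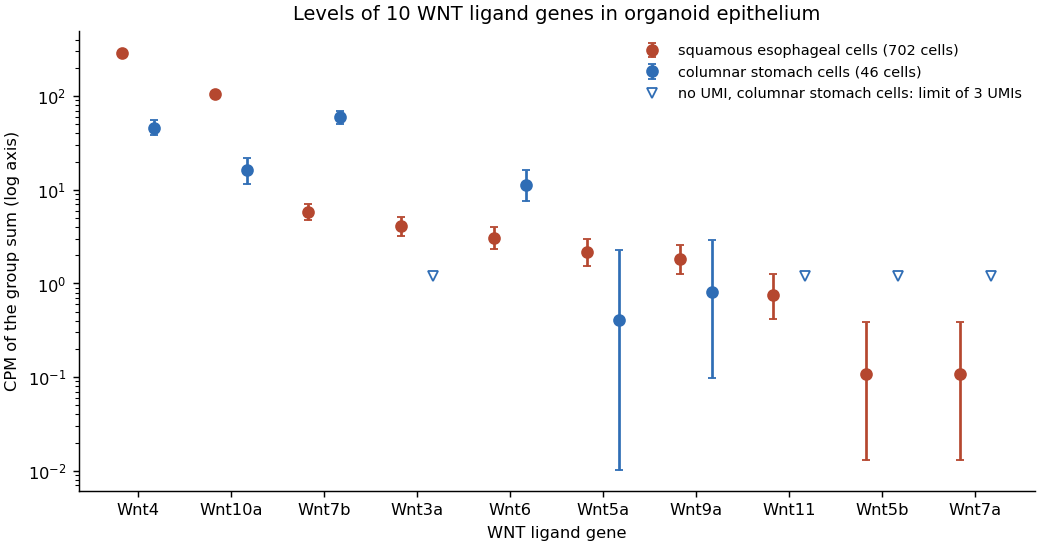
CPM of the 10 WNT ligand genes on a log axis in squamous esophageal cells (red, left of each pair) and columnar stomach cells (blue), with 95% Poisson intervals, and open triangles at the level of 3 UMIs where no UMI was found. Wnt4 and Wnt10a stand at 286 and 105 CPM in squamous cells, and Wnt7b stands at 59.5 CPM in columnar cells.

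Wnt4, a ligand that in most settings signals without β-catenin, was counted at 5287 UMIs in squamous cells (286 CPM, 279 to 294), against 114 UMIs in columnar cells (46.2 CPM). Wnt10a, a β-catenin ligand needed for teeth, hair and sweat glands in mice and people, was counted at 1940 UMIs in squamous cells (105 CPM, 100.5 to 110), against 40 UMIs in columnar cells (16.2 CPM). Both were higher in squamous cells, Wnt4 by 6.20-fold (5.15 to 7.54) and Wnt10a by 6.49-fold (4.75 to 9.11). The log2 difference of Wnt10a was 2.70, and 2.02 with no upper UMI or gene limit, and that of Wnt4 was 2.63, and 2.19 by the mean of per-cell CPM. Wnt7b, a ligand of many embryonic epithelia including lung and kidney, ran the other way. It was counted at 108 UMIs in squamous cells (5.85 CPM, 4.80 to 7.06), against 147 UMIs in columnar cells (59.5 CPM). Its level was 10.2-fold higher in columnar cells (7.88 to 13.2).

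Wnt3a, a strong activator of β-catenin, was counted at 75 UMIs in squamous cells (4.06 CPM) and was not seen in columnar cells, whose medium supplied WNT3A protein. This made it at least 3.34-fold higher in squamous cells. Wnt5a, a ligand of the ROR2 route, was at 40 UMIs in squamous cells and 1 UMI in columnar cells, a ratio of 5.35 whose interval ran between 0.907 and 217. Wnt9a was at 34 UMIs in squamous cells and 2 UMIs in columnar cells, a ratio of 2.27 with an interval between 0.583 and 19.5. For Wnt5a and Wnt9a the intervals held 1, so the columnar counts were too small to fix a direction. Wnt11, known for cell movements in early embryos, was at 14 UMIs in squamous cells and 0 in columnar cells, and the floor of 3 UMIs allowed no direction either. Wnt5b and Wnt7a had 2 UMIs each in squamous cells and none in columnar cells, and no fold is given.

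Of the 8 ligand genes with at least 10 UMIs over both groups, 5 were at least 2 times higher in squamous cells, where 14.8% of all measured genes were. The 5 include Wnt5a and Wnt9a, and only for the other 3, Wnt3a, Wnt4 and Wnt10a, did counting error leave the direction fixed. Another 2, Wnt7b and Wnt6, were at least 2 times higher in columnar cells, where 18.7% of measured genes were. The median log2 difference, squamous minus columnar, was 1.46 over the 8 genes and −0.11 over the 12717 measured genes. Wnt6 entered this count through a single cell that is described below. Without that cell the counts were 6 and 1. As the genes were chosen with earlier results of these data known, these counts are descriptions and carry no test.

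The minor levels were set against RNA from the other epithelium. Of 12 squamous lineage genes, columnar cells carried a median of 1.23% of the squamous level, with a highest value of 14.7%. The columnar level of Wnt4 was 16.1% (13.3 to 19.4) and that of Wnt10a 15.4% (10.98 to 21.1) of the squamous level, and both intervals held the highest of the 12 genes. Without the single cell that held most Wnt6, Wnt10a stood at 11.8%. Of 11 columnar lineage genes, squamous cells carried a median of 0.834% of the columnar level, with a highest value of 5.15%. Wnt7b in squamous cells stood at 9.83% of its columnar level, above all 11. There were 2.73 Wnt4 UMIs per Wnt10a UMI in squamous cells and 2.85 in columnar cells (1.97 to 4.19). In the 3 columnar clusters described below the ratio was 7.43 (3.36 to 19.4), 2.37 (1.36 to 4.29) and 1.21 (0.563 to 2.66). The part of RNA from the other epithelium in these levels was not tested.

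Detection per cell ran in the same direction for the 3 abundant ligand genes, before and after depth was made equal. Before thinning, Wnt4 was found in 530 of 702 squamous cells (75.5%) and in 24 of 46 columnar cells (52.2%), and Wnt10a in 368 (52.4%) and in 16 (34.8%). Wnt7b was found in 82 squamous cells (11.7%, 9.40 to 14.3) and in 39 columnar cells (84.8%, 71.1 to 93.7). The columnar cells were deeper, so each cell was also thinned to 10000 UMIs, which left 433 squamous and 44 columnar cells and set aside 269 and 2. Of 2 shallow squamous clusters described below, only 23 of 120 superficial-like and 9 of 155 unnamed cells stayed. The thinned squamous shares thus describe mainly the other clusters. At 10000 UMIs Wnt4 was expected in 81.3% of squamous and 24.6% of columnar cells. Wnt10a was expected in 53.7% and 12.1%, and Wnt7b in 5.30% and 42.1%. The same deep cells before thinning had Wnt10a in 76.4% and 36.4%. Wnt3a was expected in 3.87% of squamous cells. Unthinned, it had a UMI in 8.83% of squamous cells and in 0 of 46 columnar cells, which allows a share of cells with a UMI of up to 6.52%. Wnt6 was expected in 2.63% and 2.57%, Wnt5a in 1.86% and 0.485%, and Wnt9a in 1.69% and 1.01%.

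**Figure D2:**
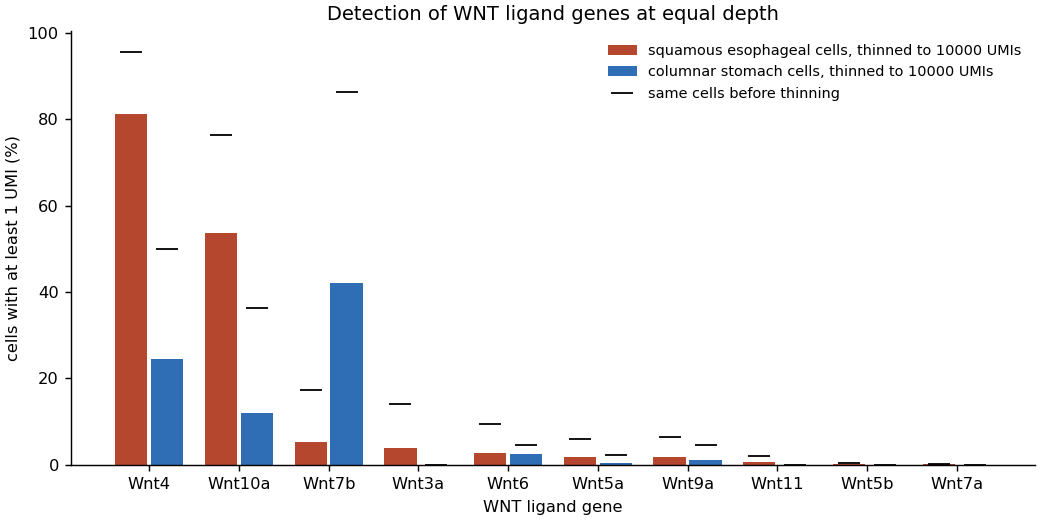
Share of cells with at least 1 UMI of each WNT ligand gene after thinning every cell to 10000 UMIs (bars, squamous esophageal cells in red on the left and columnar stomach cells in blue), with the same cells before thinning as black dashes. Wnt4 bars stand at 81.3% and 24.6%, and Wnt7b bars at 5.30% and 42.1%.

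Most deep squamous cells carried several ligand genes at once. Among the 433 squamous cells with at least 10000 UMIs, 6 had no UMI of any of the 10 genes, 82.0% had UMIs of 2 or more genes and the highest number was 5. Among the 44 columnar cells of that depth, 3 had none, 61.4% had 2 or more and the highest number was 4. Wnt10a was found in 77.8% of deep squamous cells with Wnt4 (73.5 to 81.7) and in 9 of the 19 without it. The median cell with Wnt4 held 40835 UMIs and the median cell without it 22895, and the part of depth in this difference was not tested. Wnt3a was found in 60 of 331 deep squamous cells with Wnt10a (18.1%, 14.1 to 22.7) and in 1 of 102 without it (0.980%, 0.0248 to 5.34). Wnt6 was found in 38 of the 331 (11.5%) and in 3 of the 102 (2.94%). The median cell with Wnt10a held 41925 UMIs and the median cell without it 30688.5, and the part of depth was not tested here either. The split by Wnt10a also follows the clusters described below. At any depth, Wnt10a had a UMI in 86.4% of basal-like, 41.8% of suprabasal-like and 5.83% of superficial-like cells. The last 2 clusters together held 2 UMIs each of Wnt3a and Wnt6, and the part of cluster makeup in these shares was not tested. Wnt7b showed no gap between the sides, at 16.6% of cells with Wnt10a and 19.6% of cells without it.

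The squamous cells fell into 6 clusters, computed with all WNT-related genes left out, so that ligand levels did not shape them. A basal-like cluster had 125 cells, with 9 of 12 basal markers above the other squamous cells. A G2/M-like cluster had 129 cells, with all 17 markers of that phase above the others. Another cluster of 94 cells had Inhba, a subunit of activin, and Tnc, a matrix protein, among its leading genes, after U90926, Pdpn and Gm43154. It is called Inhba-led. Of 15 genes of wound-activated squamous cells 9 were above the others in it, but the sum of the list was lower, at 891 against 1466 CPM. The Inhba-led cluster also had 9 of 12 basal markers above the others, and the G2/M-like cluster 7 of 12. Of the 17 G2/M markers, the basal-like cluster had 0 above the others. A suprabasal-like cluster had 79 cells with 11 of 12 suprabasal markers above the others. A superficial-like cluster had 120 cells with 13 of 14 superficial markers above the others. It had 12 of 12 suprabasal markers above the others as well, while the suprabasal-like cluster had 6 of 14 superficial ones. The superficial-like cells were shallow, with a median of 2498.5 UMIs. The last cluster, 155 cells with a median of 1447 UMIs, was led by gastric genes such as Agr2 and Tff1 and was left unnamed. Columnar lineage genes summed to 258 CPM in it and to 260 CPM in the superficial-like cells, against 33.3 to 66.2 CPM in the other 4 clusters. Cells are not replicates, and all values by cluster are descriptions of 1 sample.

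Wnt10a separated the clusters, and Wnt4 did so much less. Wnt10a stood at 158 CPM in the basal-like cells (146 to 171), 130 CPM in the G2/M-like cells, 107 CPM in the Inhba-led cells, 22.9 CPM in the suprabasal-like cells (17.7 to 29.0) and 6.53 CPM in the superficial-like cells (2.63 to 13.5). The highest level was 24.2 times the lowest (11.7 to 60.5), and 7.47 times by the mean of per-cell CPM, which gives shallow cells the same weight as deep ones. Wnt4 stood at 326, 288, 311, 236 and 200 CPM in the same order, and its highest level was 1.64 times its lowest (1.41 to 1.90). Hence the suprabasal-like cells held 10.3 Wnt4 UMIs per Wnt10a UMI and the superficial-like cells 30.6, against 2.06 in the basal-like cells. Thinned to 10000 UMIs, Wnt10a was expected in 20.1% of suprabasal-like and 71.6% of basal-like cells, and Wnt4 in 76.1% and 83.0%. The unnamed shallow cells had 229 CPM of Wnt4 and 72.2 CPM of Wnt10a.

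**Figure D3:**
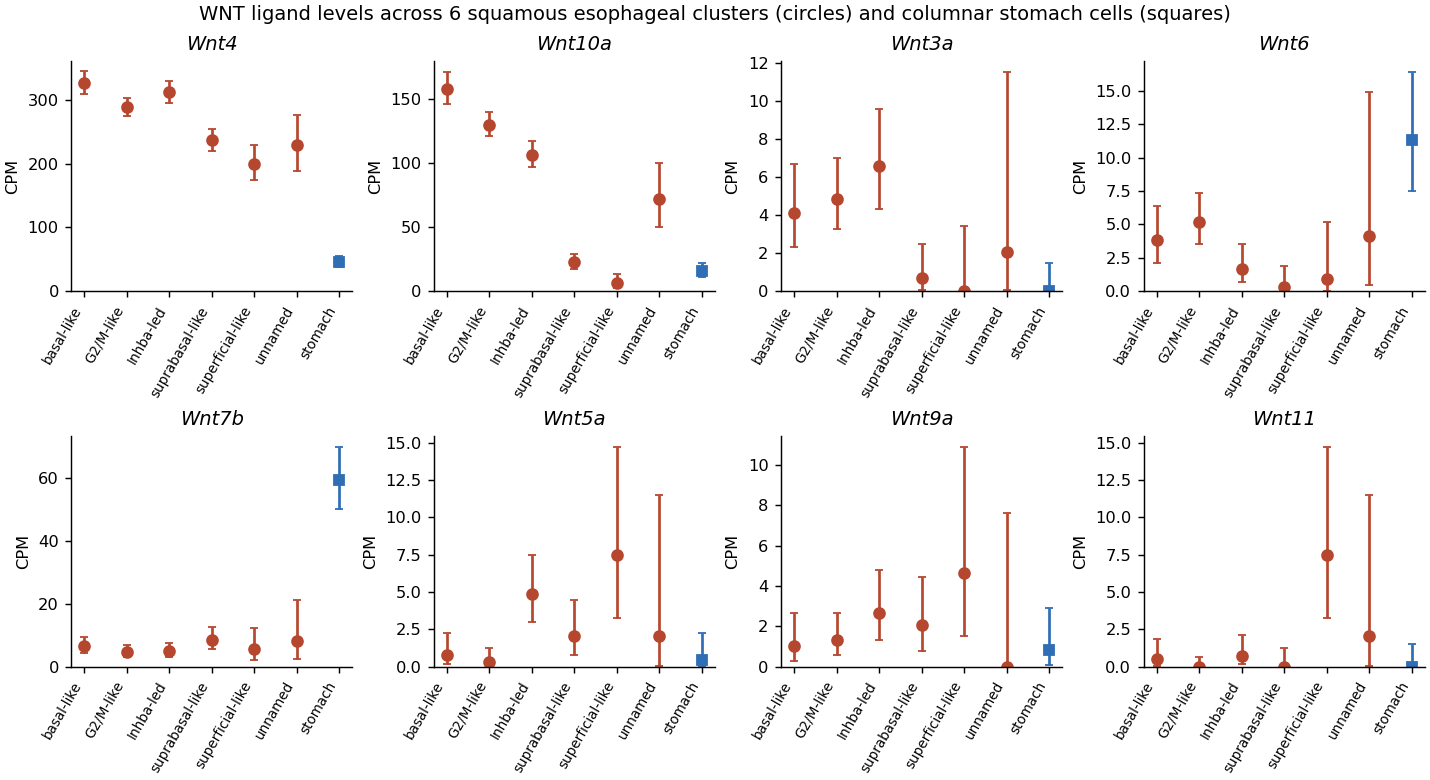
CPM of 8 WNT ligand genes, each on its own linear axis, in the 6 squamous esophageal clusters (red circles, basal-like on the left) and in columnar stomach cells (blue squares), with 95% Poisson intervals. Wnt10a stands at 158 CPM in basal-like and 6.53 CPM in superficial-like cells, while Wnt4 stays between 200 and 326 CPM.

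The clusters of differentiated cells, suprabasal-like and superficial-like, were then joined and set against the basal-like, G2/M-like and Inhba-led clusters, a division made after the levels were seen. The joined clusters held 199 differentiated and 348 undifferentiated cells. Wnt10a had 74 UMIs in differentiated cells (18.5 CPM) and 1831 in undifferentiated cells (131 CPM), 7.09-fold lower in the differentiated cells (5.61 to 9.06). Wnt3a had 2 UMIs in differentiated cells and 72 in undifferentiated cells, 10.3-fold lower (2.75 to 86.7). Wnt6, a ligand of several developing epithelia, had 2 and 53 UMIs, 7.59-fold lower (2.0 to 64.3). By summed CPM the β-catenin ligands Wnt3a and Wnt10a and the Wnt10a neighbour Wnt6 were therefore all scarce in differentiated cells. By the mean of per-cell CPM the gap of Wnt6 was smaller, at 1.52 in suprabasal-like and 1.66 in superficial-like cells. The basal-like, G2/M-like and Inhba-led cells had 3.45, 5.06 and 2.90 by that measure. In superficial-like cells alone Wnt3a had 0 UMIs, and the floor of 3 UMIs allowed a ratio to undifferentiated cells of up to 0.543.

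Wnt4 had 226 CPM in differentiated cells and 306 CPM in undifferentiated cells, a ratio of 0.741 (0.689 to 0.796). Wnt7b had 7.75 CPM and 5.23 CPM, a ratio of 1.48 whose interval held 1 (0.941 to 2.29). Wnt5a had 14 UMIs (3.50 CPM) and 25 UMIs (1.79 CPM), a ratio of 1.96 (0.94 to 3.91). Wnt9a had 11 UMIs and 23 UMIs, a ratio of 1.67 (0.735 to 3.57). Wnt11 had 8 UMIs in differentiated cells and 5 in undifferentiated cells, 5.59-fold higher (1.61 to 21.7), and all 8 lay in 5 superficial-like cells. By the mean of per-cell CPM the gap was small, with Wnt11 at 1.65 in superficial-like and 0 in suprabasal-like cells. The basal-like cells had 1.32, the Inhba-led cells 0.511 and the G2/M-like cells 0 by that measure. Of the 8 measured ligand genes, 3 were at least 2 times lower in differentiated cells, where 19.8% of 12212 genes were, and 1 was at least 2 times higher, where 7.38% were. The median log2 ratio was 0.07 over the 8 ligand genes and −0.33 over all those genes.

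Wnt5a was highest in the superficial-like and Inhba-led cells. Its level was 7.46 CPM in the superficial-like cells, from 8 UMIs in 6 cells, and 4.86 CPM in the Inhba-led cells, from 20 UMIs in 14 cells. It was 0.335 CPM in the G2/M-like cells, from 2 UMIs, and 0.772 CPM in the basal-like cells, from 3 UMIs. Against the other squamous cells, the Inhba-led cells were 3.49-fold higher (1.78 to 6.83) and the superficial-like cells 4.06-fold higher (1.61 to 8.99). In the suprabasal-like cells 1 cell gave 5 of the 6 Wnt5a UMIs. Wnt9a had its highest levels in the same clusters, at 4.67 CPM (5 UMIs) in the superficial-like and 2.67 CPM (11 UMIs) in the Inhba-led cells. Against the other squamous cells these were 2.80-fold (0.845 to 7.31) and 1.67-fold (0.734 to 3.56), and both intervals held 1. By the mean of per-cell CPM the superficial-like cells, at 1.28, were below the Inhba-led (2.34), suprabasal-like (1.56) and G2/M-like (1.32) cells. Wnt11 was highest in the superficial-like cells too, at 7.46 CPM from 8 UMIs. By the mean of per-cell CPM the unnamed shallow cells were highest for Wnt11, at 7.98 from 1 UMI, against 1.65 in the superficial-like cells. Wnt6 was highest in the G2/M-like cells, at 31 UMIs in 22 cells (5.19 CPM), 2.49-fold above the other squamous cells (1.43 to 4.37). Wnt3a was highest in the Inhba-led cells, at 27 UMIs in 19 cells (6.56 CPM), and lay within counting error of the G2/M-like cells at 4.86 CPM.

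Profiles over the 6 clusters and the columnar stomach cells gave, for each ligand gene with at least 50 squamous UMIs, the 3 genes most like it. With 7 points and 7413 candidate genes, high values of r are easily reached and carry no test. For Wnt4 these were Cdh3, a cadherin of basal cells (r = 0.999), Krt17 and Galnt18. For Wnt10a they were Sgk3, Grwd1 and Cblb (r = 0.984 to 0.986). Wnt3a was followed most closely by Snapc2, Serpine2 and Nrg1, a growth factor of the EGF family, and Wnt7b by Pgap1, Cox19 and Nrn1. For Wnt6 they were Slc25a10, Tax1bp1 and Galk2, and this profile rests on the single stomach cell. Among the ligand genes, Wnt3a and Wnt10a ran together (r = 0.946) and Wnt4 and Wnt7b ran opposite (r = −0.962). Over the 6 squamous clusters alone r was 0.828 for the first pair and −0.44 for the second, so the second value rests on the stomach point.

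The columnar stomach cells were also uneven. Their 3 clusters were small, with 19, 7 and 20 cells, and were named by leading genes. The first was led by Lyz1, an antibacterial lysozyme. The second was led by Wnt6, with 27 of its 28 UMIs in 1 cell, then by Lcn2, Ly6g6c, Fn1, Rptn and C3. It is called C3-led after C3, a complement protein. The third was led by Agr2, a gene of mucous cells, together with genes of cell division. Wnt4 was at 64.8 CPM in the Lyz1-led cells, 101 CPM in the C3-led cells and 13.9 CPM in the Agr2-led cells (8.11 to 22.3). In the C3-led cells 22 of the 45 UMIs came from 1 cell, without which the level was 60.3 CPM, and without the highest Lyz1-led cell the level there was 52.0 CPM. Squamous lineage genes, as a gauge of esophageal RNA, were at 246, 180 and 165 CPM in the same clusters. Genes of dissociation stress summed to 3395, 4447 and 2340 CPM in them, and the part of either in the Wnt4 levels was not tested. Wnt7b was at 79.8 CPM (61.4 to 102), 69.6 CPM (47.3 to 98.8) and 42.6 CPM (31.8 to 55.8), and 1 cell gave 24 of the 64 Lyz1-led UMIs, without which the first value was 52.0 CPM. Wnt10a was at 8.73, 42.7 and 11.5 CPM, and 10 of the 19 UMIs behind the second value came from 1 cell, without which it was 23.2 CPM.

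Few columnar cells carried most of the Wnt4. Of its 114 UMIs, 58 lay in 5 cells (50.9%), and the highest cells had 22, 12 and 10 UMIs. The cells with 22 and 12 had 343 and 366 CPM of Wnt4, both above the squamous level of 286 CPM, and 250 and 396 CPM of squamous lineage genes. The cell with 12 also held 24 Wnt7b UMIs, the most of any columnar cell. As a share of cells the groups were close. For 50% of the Wnt4 UMIs 89 squamous cells (12.7%) and 5 columnar cells (10.9%) were needed, and for 50% of the Wnt10a UMIs 85 squamous cells (12.1%) and 4 columnar cells (8.70%). No squamous cell held more than 1.46% of the Wnt4 UMIs, the highest having 77, or more than 1.19% of the Wnt10a UMIs, the highest having 23.

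Only Wnt6 was held by a single cell. With 50% of a gene's UMIs in 1 cell as the rule, 0 of the 8 ligand genes with at least 10 UMIs in squamous cells met it, where 0.253% of 12251 genes did. In columnar cells 1 of 4 met it, where 0.601% of 9643 genes did. A columnar cell of the C3-led cluster held 27 of the 28 Wnt6 UMIs (96.4%), and 1 of the other 45 cells held the last. Wnt6 was thus at 11.3 CPM in columnar cells with that cell and at 0.415 CPM without it. With all columnar cells Wnt6 was 3.67-fold higher in columnar than in squamous cells (2.25 to 5.87). Without that cell it was higher in squamous cells, by 2.90 on the log2 scale. The same cell held 10 of the 40 Wnt10a UMIs, at 174 CPM, against 12.4 CPM in the other 45 cells. It held 4 Wnt7b and 2 Wnt4 UMIs, at 69.5 and 34.8 CPM, close to 59.3 and 46.4 CPM in the other cells.

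**Figure D4:**
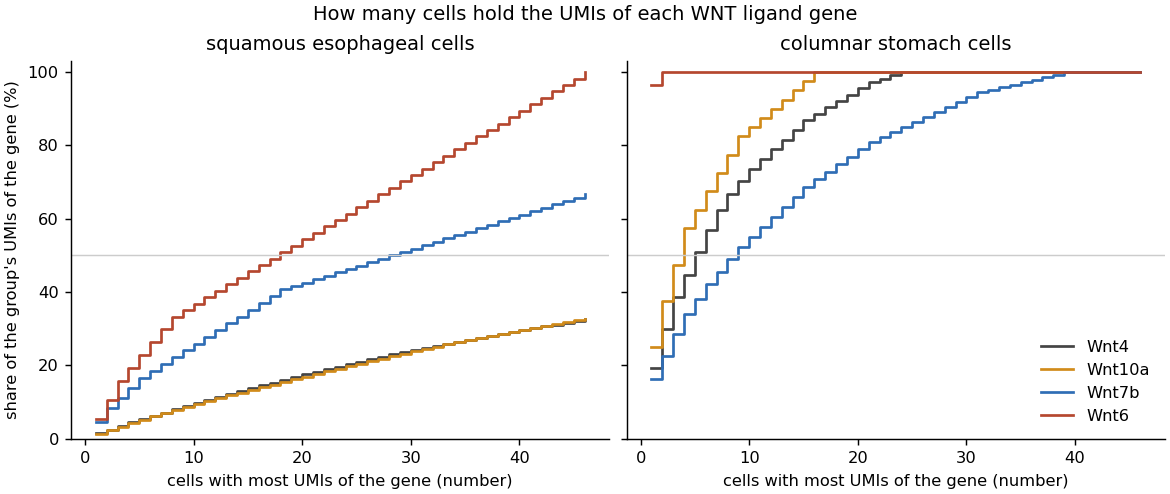
Share of the UMIs of Wnt4, Wnt10a, Wnt7b and Wnt6 held by the cells with most of them, added up from the highest cell, for the first 46 squamous esophageal cells (left) and all 46 columnar stomach cells (right). In columnar cells 1 cell holds 96.4% of Wnt6, while in squamous cells the highest cell holds 5.26%.

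The cell had 57516 UMIs, 6797 genes and 11.4% mitochondrial UMIs, and it ranked 26 among the 46 columnar cells by UMIs. Its keratin UMIs were 3.76% squamous, and it carried 31 reads of the esophageal tag and 214 of the stomach tag. The genes that stood out in it, by the ratio of its CPM to that of the other 45 cells, were Wnt6, Fn1, Ctse, Glul, Pigr, C130026I21Rik and Itm2c. Fn1, which codes for fibronectin, had 47 UMIs in the cell and 15 in the other 45 cells (131-fold, 72.2 to 253). Pigr, the receptor that carries IgA across epithelia, had 1146 UMIs in the cell and 2672 in the others (17.98-fold). All 7 of these genes lie on chromosome 1.

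Chromosome 1 was then measured as a whole, a step taken after these genes were seen. Its genes gave 13.8% of the UMIs of the Wnt6-holding cell, against 1.54 to 5.54% in the other 45 columnar cells. Among squamous esophageal cells with at least 10000 UMIs the highest share was 7.57%. Along the chromosome the difference had a start, and the boundary of 60 Mb used here was set after the bins of 20 Mb given below were seen. Over 38 genes before 60 Mb, each with at least 100 UMIs in the other columnar cells, the median ratio of the cell to the others was 0.812. Over 133 genes from 60 Mb on it was 3.51, and 124 of them (93.2%) were above 1. In bins of 20 Mb the medians were 0.836, 0.763 and 0.936 up to 60 Mb and lay between 2.91 and 4.74 in all 7 bins after it. Over 2865 genes of the other chromosomes the median ratio was 0.895, and no other chromosome had a median above 1.04. Wnt6 and Wnt10a both lie in the raised part. Genes of that part gave 12.9% of the UMIs of this cell, against at most 4.01% in any other columnar cell, 3.55% in 56 other deep stomach-tagged barcodes and 5.52% in 499 deep esophagus-tagged barcodes. What raised these genes in this cell was not tested.

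**Figure D5:**
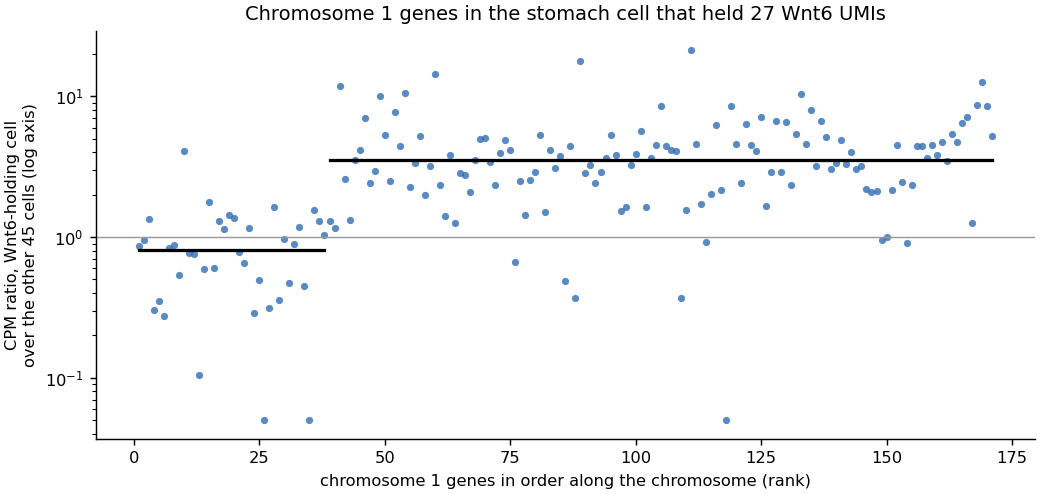
Ratio of CPM in the Wnt6-holding stomach cell to CPM in the other 45 columnar stomach cells, on a log axis, for 171 chromosome 1 genes in their order along the chromosome, with black lines at the medians of 0.812 and 3.51 and 3 genes without a UMI in the cell drawn at the lower edge. The step lies between the first 38 genes and the following 133.

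Other genes of the pathway gave the setting in which these ligands were measured. Of 16 measured genes of ligand secretion, 15 differed by less than 2-fold between squamous and columnar cells, as 66.6% of all measured genes did. Porcn was at 27.2 CPM in squamous cells and 17.01 CPM in columnar cells, and only Mtm1, a lipid phosphatase, passed 2-fold, at 22.7 CPM in squamous cells and 6.07 CPM in columnar cells. Of 14 measured WNT target genes, none was at least 2 times higher in squamous cells and 11 were at least 2 times higher in columnar cells, where 14.8% and 18.7% of all measured genes were. Sp5 was at 0.596 CPM in squamous cells and 61.6 CPM in columnar cells, Axin2 at 0.867 and 55.5 CPM, and Lgr5 at 0.542 and 50.6 CPM. The median log2 difference, squamous minus columnar, was −2.94 over the targets, and β-catenin targets were thus low in the cells with most Wnt10a and Wnt3a transcripts, with WNT3A added to the medium of the stomach organoids alone.

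Receptors, inhibitors and carriers had members on both sides. Of 13 measured receptor genes, 2 were at least 2 times higher in squamous and 4 in columnar cells, against the same 14.8% and 18.7% of all measured genes, so the squamous share was that of the background. Ptk7, a co-receptor of planar polarity, was at 31.8 CPM in squamous cells and 7.29 CPM in columnar cells, and Fzd1 was at 2.60 CPM in squamous cells and 14.2 CPM in columnar cells. Of 7 measured inhibitors, 3 were at least 2 times higher in squamous and 3 in columnar cells, set against 14.8% and 18.7% of all measured genes. Sostdc1, which blocks LRP receptors, had 393 UMIs in squamous cells and 0 in columnar cells, at least 17.5-fold higher. Rnf43, an enzyme that removes Frizzled and is itself a WNT target, was at 5.15 CPM in squamous cells and 53.1 CPM in columnar cells. Of 9 measured carriers and inactivators, 2 were at least 2 times higher in squamous and 2 in columnar cells, again against 14.8% and 18.7%. Cpe was at 197 CPM in squamous cells and 9.31 CPM in columnar cells. Notum, which strips the lipid from WNT ligands, was at 0.759 CPM in squamous cells and 30.0 CPM in columnar cells. Both measured R-spondin receptors, Lgr4 and Lgr5, were at least 2 times higher in columnar cells, where 18.7% of all measured genes were. Lgr5 is also counted among the WNT target genes above.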

How the data were processed

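Mouse esophageal and stomach organoid cells were labelled with MULTI-seq tags, pooled and sequenced as 10x single-cell libraries. The authors deposited raw UMI counts per gene and barcode, from Cell Ranger 3.1.0 with build mm10 per the submitters' processing notes, together with deposited tag counts and a tag call for each barcode. Here 765 of 919 esophageal and 90 of 180 stomach barcodes were kept, those with over 100 and under 8500 genes, no more than 80000 UMIs and a mitochondrial share up to 20%. Cells with a squamous share of at least 0.75 or at most 0.25 over 6 keratins, from at least 5 UMIs, were used. Scanpy 1.11.5 clustered them (2000 variable genes, 20 components, 15 neighbors, Leiden resolution 0.6, and for stomach cells 10 and 10). Sums have Poisson, shares Clopper-Pearson and ratios conditional binomial intervals, and thinned shares are exact hypergeometric expectations. The functions were tested on simulated data. Measured genes had at least 10 UMIs. Named genes were the 10 ligands, up to 3 genes per WNT list by size of the difference (at least 10 CPM), the 3 most alike genes with at least 200 UMIs, and up to 6 genes with at least 20 UMIs in a cell holding 50% of a ligand. The members and lists were chosen with earlier results of these data known. Gene positions are those of GENCODE vM21, which matched 31490 of 32285 symbols.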

Additional observations from a re-analysis of the deposited data

Results flagged for a closer look

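The comparison left out barcodes over the UMI or gene limit, among them 41 columnar stomach cells with a median of 122552 UMIs. These cells held more than 3 UMIs each of 3 ligand genes for which the 46 compared columnar cells had none. Wnt5b had 4 UMIs in 3 cells (0.768 CPM), Wnt7a had 7 UMIs in 4 cells (1.34 CPM) and Wnt11 had 6 UMIs in 5 cells (1.15 CPM). As levels, Wnt5b and Wnt11 lie under the 1.21 CPM that a count of 0 allows in the compared cells and Wnt7a lies just above it, so a difference from those cells was not detectable at their depth. Whether the cells over the limit are single cells was not tested.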

How the results depend on the processing

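Of 96 recomputed differences of 8 ligand genes, 85 stayed within the counting interval, 9 moved beyond it and 2 turned round, both for Wnt6. The log2 difference of Wnt6, squamous minus columnar, was −1.88 with all cells, 2.82 without the highest cell of each group and 2.90 without the Wnt6-holding stomach cell, an alternative added after seeing the data. The number of ligand genes at least 2 times higher in columnar cells was 2, and 1 without these cells, with no upper UMI or gene limit and with no limits at all. By the mean of per-cell CPM the number in squamous cells was 4 in place of 5, as it was without 8 esophageal and 13 stomach barcodes that Scrublet marked over all cells. With 25% of UMIs as the rule, 2 ligand genes were held by 1 columnar cell, Wnt6 and Wnt10a. The ratio of the highest to the lowest cluster was 1.64 for Wnt4, and 1.39 with 1000 variable genes and 1.36 by the mean of per-cell CPM. For Wnt10a it was 24.2, and 7.47 by the mean of per-cell CPM. The ligand genes at least 2 times higher in differentiated cells numbered 1, and 0 with suprabasal-like cells only and 3 with superficial-like cells only. TMM scaling shifted every log2 difference by 0.19 and median-of-ratios scaling by 0.11, with no change in either number of ligand genes. The cause of these moves was not tested, beyond the single cell of Wnt6. No paired analysis was possible because each group was 1 sample. With 2469229 UMIs in 46 columnar cells, a count of 0 allows a level of up to 1.21 CPM. The levels without single stomach cells and the values of r over squamous clusters alone were also chosen after seeing the data.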

Other observations

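Cells set aside by the filters or by their keratins gave a further view of the 3 abundant ligand genes. Esophageal squamous cells over the UMI or gene limit, 22 in number, had 310 CPM of Wnt4, 71.2 CPM of Wnt10a and 7.71 CPM of Wnt7b. The 108 over the mitochondrial limit had 285, 88.2 and 10.1 CPM. Stomach columnar cells over the UMI or gene limit had 45.3, 29.2 and 56.8 CPM in the same order. The 13 over the mitochondrial limit had 34.3, 5.71 and 206 CPM, the last from 36 Wnt7b UMIs.

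A group of 24 cells carried the esophageal tag and columnar keratins. They had 18.1 CPM of Wnt4, 15.7 CPM of Wnt10a and 35.0 CPM of Wnt7b, and so had more Wnt7b than Wnt4, as the stomach columnar cells had and the squamous cells did not. The stomach tag held 21 squamous cells with 6 ligand UMIs in all, too few to compare.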
